A study of Caenorhabditis elegans with 14 samples.

Results

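The comparison described here set *mir-60;spe-9* double mutants beside *spe-9* single mutants of *Caenorhabditis elegans* at Day 7 of adulthood, after continuous exposure to 5 mM paraquat. It used the libraries labelled with these strains and this day, 2 of the 7 libraries in the series and 4 of its 14 sequencing records, since each library was sequenced in 2 runs that were merged. The *mir-60;spe-9* animals, called double mutants below, carried a deletion of *mir-60* in the *spe-9(hc88)* background, and the *spe-9* controls carried *spe-9(hc88)* alone. Both strains therefore shared the *spe-9* mutation, which makes animals sterile at the restrictive temperature of 23.5 °C, and both were kept on 5-fluorodeoxyuridine (FUDR, 325 µM), which stops the growth of progeny, and on paraquat, a source of superoxide, from Day 0 onward. Whole animals were collected, so fewer cells of a type and less RNA per cell cannot be told apart. The other libraries were 2 of *mir-60;spe-9* and 2 of *spe-9* at Day 0, before either compound was given, with 1 library of double mutants at Day 10 on both compounds. With 1 library per strain at Day 7 no test was possible, and a difference compares those libraries. In the study's lifespan assay on paraquat, *spe-9* controls reached median survival near Day 7 and double mutants near Day 10. A strain, its stage of survival, a plate and a library preparation therefore cannot be told apart at this day.

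MicroRNAs are short RNAs that pair with messenger RNAs, mainly through the seed at their 5′ end, and lower their stability or translation. miR-60 is a miRNA of the *C. elegans* intestine, the organ that digests food, stores fat, makes yolk and meets ingested bacteria and toxins. The study's forward primer for the mature miRNA is shown because it carries the seed through which targets were predicted. It holds 5 added g at its 5′ end, and the 7 capitals are bases 2 to 8 of the miRNA, the seed.
miR-60-3p forward primer: gggggtATTATGCacattttct
The *mir-60* gene itself (chromosome II:6328670-6328767, WS220, an entry of 98 bases) was listed at 0 FPKM in all 7 libraries, *spe-9* included. Libraries made from polyadenylated RNA thus gave no check of the deletion.

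Values were FPKM (fragment counts divided by transcript length and by library size), summed over the transcripts of a gene, and differences were taken as log2(FPKM + 0.5) in *mir-60;spe-9* minus *spe-9*, a scale that understates the fold of genes at low FPKM. A gene was compared when its longest transcript had at least 200 bases, its mean over both Day 7 libraries was at least 1 FPKM and neither library was listed at exactly 0. This left 12347 of 41560 gene symbols. The steps of whole reads in the low values put the depth of the *mir-60;spe-9* Day 7 library at 1.11 times that of the *spe-9* Day 7 library, and the other libraries lay between 0.885 and 1.03 times. Reads behind a value are estimates from the same steps. Of the 357 genes left out for an exact 0, 352 were at 0 in the *mir-60;spe-9* library and 5 in the *spe-9* library. Among these, 350 lay in a pair of unbroken stretches of the genome: chromosome IV from 1956725 to 4513305, with all 371 expressed entries at 0, and chromosome V from 7731820 to 8569933, with all 141 at 0 there and in the *mir-60;spe-9* Day 10 library as well. No such stretch was found for the *spe-9* Day 7 library. Genes that every cell uses were among them. For example, *rpl-7A*, a ribosomal protein gene, was listed at 0 in *mir-60;spe-9* and at 798.6 FPKM in *spe-9* at Day 7, and *asp-6*, an aspartyl protease gene, at 0 and at 6344 FPKM. Such zeros were not read as expression, and no fold was formed for these genes.

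At Day 7 the libraries differed more than replicates did at Day 0, and more genes were higher in *mir-60;spe-9* than lower. Over the 12170 genes with a value in every library, the median absolute difference was 0.24 between the strains at Day 7, against 0.12 between the double mutant replicates and 0.14 between the *spe-9* replicates of Day 0. Differences over 2-fold were found in 466 of these genes at Day 7, in 213 between the double mutant replicates and in 146 between the *spe-9* replicates. The median difference of all 12347 genes was -0.0027. FPKM are already scaled to library size, so a shift of all genes together cannot be seen from it. A gene is called higher or lower below when its difference was over 2-fold and also over the noise limit of its expression level. That limit is the 99th percentile of the replicate differences at Day 0 among genes of similar level, and it ran from 0.56 to 1.67 on the log2 scale over 10 classes of level. By this rule 176 genes (1.43%) were higher and 77 (0.624%) were lower in *mir-60;spe-9*. After quantile normalization the split was 260 higher and 64 lower. The rule applied back to the replicates that set its limits called 0.927% of genes in either direction for the double mutants and 0.534% for *spe-9*. Genes of coding length under 300 bases were called more often in every pair, at 9.08% between the strains at Day 7, 7.41% between the double mutant replicates and 4.30% between the *spe-9* replicates. For longer genes the shares were 1.62%, 0.564% and 0.324%. A call on a short gene therefore stands closer to the replicate noise than a call on a long one. Of the genes called higher, 146 also exceeded their own replicate differences in both strains at Day 0, as did 62 of those called lower.

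**Figure D1:**
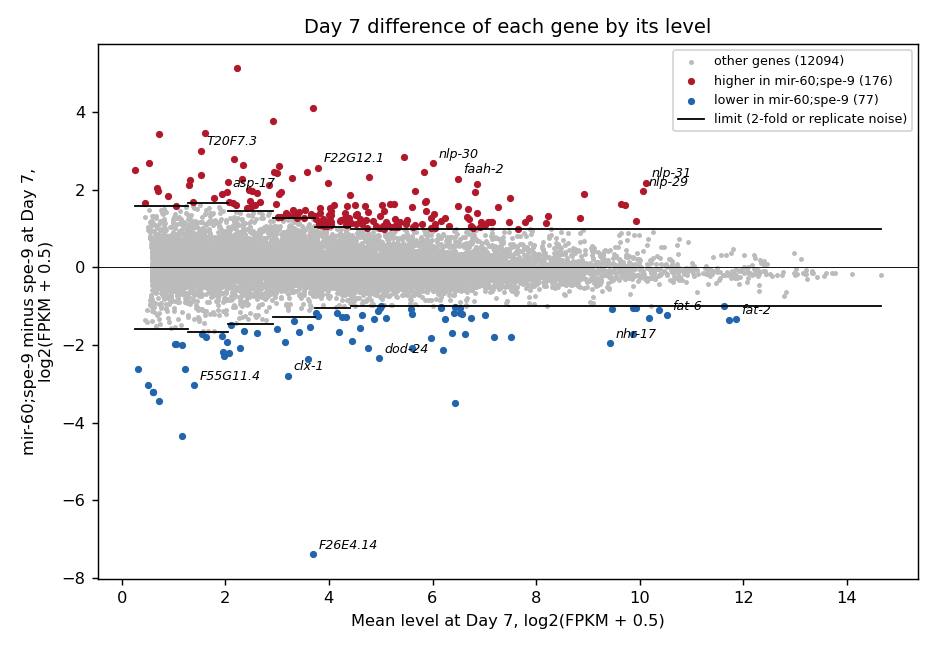
Each point is a gene, with its mean level in the Day 7 libraries on the x axis and *mir-60;spe-9* minus *spe-9* on the y axis, both as log2(FPKM + 0.5). Red points are the 176 genes called higher, blue points the 77 called lower, and black lines the limit at each level, which narrows as the level rises.

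The group that stood out by count was the antimicrobial peptide genes. These encode small secreted peptides: the neuropeptide-like *nlp-27* to *nlp-34* group and the caenacins (*cnc*), which the epidermis makes upon fungal infection or wounding, the *fip* and *fipr* genes named for their relation to a fungus-induced peptide, and the *abf* antibacterial factors. There were 61 such genes in the deposited values, and 30 were compared. Of these, 14 were higher and 1 was lower in *mir-60;spe-9*, against 1.43% and 0.624% of all genes, and their median difference was 0.81. Most of the 14 had a coding length under 300 bases. Of all 705 genes of that length compared, 39 were higher and 25 were lower. *nlp-29*, the standard reporter of the epidermal response, was at 2119 FPKM in double mutants and 542.8 FPKM in *spe-9* at Day 7, a difference of 1.96. At Day 0 it was at 2016 and 2878 FPKM in double mutants and at 1569 and 1688 FPKM in *spe-9*, so the *spe-9* Day 7 library held the lowest value of the gene. Of the 14 higher genes, 11 were lower in *spe-9* at Day 7 than in both *spe-9* libraries of Day 0. In double mutants, 4 of the 14 were higher at Day 7 than in both Day 0 libraries. *nlp-31* was at 2384 FPKM in double mutants and 522.5 FPKM in *spe-9* (2.19). *nlp-30* was at 163.4 and 24.9 FPKM (2.69), the largest difference of the group, on about 251 and 34 reads. *nlp-33* was at 133.3 FPKM in double mutants and 23.6 FPKM in *spe-9* (2.47). Its Day 0 libraries, between 444.6 and 537.8 FPKM, overlapped between the strains, and both Day 7 values lay below them. The caenacin *cnc-8* was at 221.5 and 57.4 FPKM (1.94), and *cnc-4* was at 1468 and 482.4 FPKM (1.60). In the double mutant library of Day 10, *nlp-29* was at 567.0, *nlp-30* at 18.4, *nlp-33* at 19.9 and *cnc-8* at 46.3 FPKM, values near those of *spe-9* at Day 7. *nlp-31*, at 814.3 FPKM, *cnc-4*, at 737.2 FPKM, and *nlp-27*, at 1249 FPKM, lay above *spe-9* at Day 7, and all 14 were lower at Day 10 than at Day 7 in the double mutants.

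The higher peptide genes lay partly side by side. Of the 14, 10 fell in 3 groups with less than 20 kb between neighbours on WS220: *nlp-27*, *nlp-29*, *nlp-30* and *nlp-31* on chromosome V:3980163-3989698, *cnc-2*, *cnc-4* and *cnc-5* on chromosome V:1445381-1450174, and *fip-5*, *fipr-21* and *cnc-8* on chromosome X:10302682-10306823. The remaining members were *nlp-33*, *cnc-6*, *cnc-7* and *fip-6*. All but *fipr-21*, of 339 bases, had a coding length under 300 bases, the range where replicates were noisiest. For 9 of them (*nlp-27*, *nlp-29*, *nlp-30*, *nlp-31*, *nlp-33*, *cnc-4*, *cnc-8*, *fip-5* and *fipr-21*) the Day 7 difference exceeded the replicate differences of the gene itself, and for *cnc-2*, *cnc-6*, *cnc-7* and *fip-6* it did not. *cnc-2*, for example, was at 333.6 FPKM in double mutants and 96.9 FPKM in *spe-9* at Day 7, while its Day 0 replicates stood at 116.2 and 785.1 FPKM in double mutants and at 91.0 and 297.9 FPKM in *spe-9*. *cnc-5* had a replicate listed at 0 in each strain at Day 0, so its own spread could not be formed. The 14 also moved together between replicates: each was higher in replicate 2 than in replicate 1 of the double mutants at Day 0. Their calls are therefore not separate observations. Summed over the 30 genes compared, these replicates were at 8202 and 13317 FPKM, and those of *spe-9* at 7476 and 8267 FPKM. At Day 7 the sums were 11076 FPKM in double mutants and 4179 FPKM in *spe-9*. Members that were not called included *abf-2*, at 1383 FPKM in double mutants and 921.0 FPKM in *spe-9* (0.59), and *cnc-10*, at 138.4 and 108.4 FPKM (0.35). The lower member was *fipr-13*, at 1.57 FPKM in double mutants and 6.58 FPKM in *spe-9*, on about 4 reads in the double mutant library. Genes known to act upstream of *nlp-29*, chosen here after their values were seen, were not called. The STAT-like factor gene *sta-2* was at 17.4 FPKM in double mutants and 8.58 FPKM in *spe-9* (0.98), the receptor gene *dcar-1* at 55.7 and 32.5 FPKM (0.77), the adaptor gene *tir-1* at 226.7 and 153.6 FPKM (0.56), and the p38 kinase gene *pmk-1* at 42.4 and 39.5 FPKM (0.10).

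**Figure D2:**
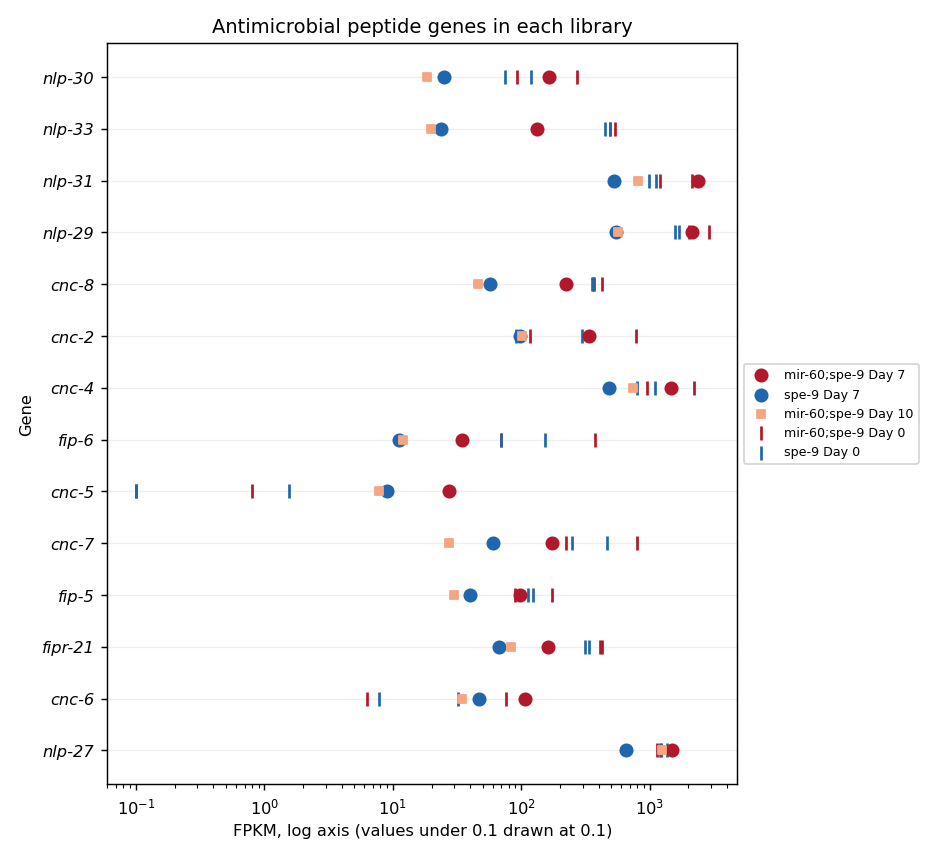
FPKM on a log axis for the 14 antimicrobial peptide genes called higher, one row per gene. Large red points are double mutants and large blue points *spe-9* at Day 7, squares are double mutants at Day 10, and vertical ticks are the Day 0 libraries (red double mutants, blue *spe-9*). In every row the red Day 7 point lies right of the blue one, and the ticks of *cnc-2*, *cnc-6* and *fip-6* spread as widely as the Day 7 points.

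Among single genes, the 15 highest and the 15 lowest of the called genes with at least 5 FPKM in the higher library were examined one by one. In 7 of these 30 the difference rested on a transcript entry shorter than 200 bases, and it was 2-fold or less once such entries were left out. These were *T19C4.11*, *K08F11.1*, *lips-5* and *F28E10.1* on the higher side and *F26E4.14*, *F55A12.2* and *ZC239.13* on the lower side. *F26E4.14*, the gene with the largest fall, had 0.50 FPKM in double mutants and 167.3 FPKM in *spe-9*, on about 2 and 4 reads, and the difference of -7.40 became -0.45 without the short entry.

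The well-covered genes at the top were of mixed function, and several had no gene name. *faah-2*, a gene of the fatty acid amide hydrolase family, was at 197.9 FPKM in double mutants and 40.2 FPKM in *spe-9*, a difference of 2.29 on about 3375 reads in the lower library, and was also higher at Day 0, by 1.23. *F22G12.1* was at 33.2 and 5.15 FPKM (2.57), *F10C2.3* at 19.8 and 2.83 FPKM (2.61), *F15B9.6* at 12.2 and 1.54 FPKM (2.64), and *T20F7.3* at 7.65 and 0.51 FPKM (3.01). All of them rested on about 300 reads or more in the double mutant library. *hpo-6*, named for hypersensitivity to a pore-forming toxin, was at 61.0 FPKM in double mutants and 11.7 FPKM in *spe-9* (2.33). The histone gene *his-16* was at 27.7 and 1.55 FPKM (3.78), but at 96.5 FPKM in double mutants at Day 10 and between 0.04 and 5.32 FPKM at Day 0. The insulin-like peptide gene *ins-7* was at 44.3 FPKM in double mutants and 14.4 FPKM in *spe-9* (1.59). *C45B2.8* (117.8 and 15.8 FPKM) was a short gene whose Day 0 replicates in double mutants stood at 6.40 and 87.6 FPKM. *B0348.2*, also short, was at 17.5 and 2.79 FPKM (2.45). At Day 0 it was at 17.5 and 5.91 FPKM in double mutants and at 1.21 and 0.64 FPKM in *spe-9* (2.95). *nlp-26*, a neuropeptide-like gene outside the epidermal group, was at 18.2 and 2.93 FPKM (2.44), and *T26H5.14* was at 11.3 and 1.20 FPKM on about 21 and 2 reads.

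In each protease family 1 or 2 genes were called, against 1.43% higher and 0.624% lower of all genes. The aspartyl protease gene *asp-17* was at 7.52 FPKM in double mutants and 1.58 FPKM in *spe-9* (1.95), and was the called gene among the 8 aspartyl proteases compared, whose median was 0.14. The family members *asp-5*, *asp-6* and *asp-12* fell in the stretches of zeros. Of 9 cathepsin B and L genes 2 were higher, *cpr-4* (59.4 FPKM in double mutants and 24.6 FPKM in *spe-9*) and *cpr-5* (73.7 and 34.3 FPKM), and the median was 0.34. Of 7 neprilysins 1 was higher, *nep-17*, at 39.8 and 16.7 FPKM (1.23). Of 11 astacins 1 was higher and 1 lower. The astacin metalloprotease gene *nas-37*, which acts in molting, was at 13.9 and 5.18 FPKM (1.34), whereas its relative *nas-6* was at 4.08 FPKM in double mutants and 16.8 FPKM in *spe-9* (-1.92). None of the 15 genes compared of the vacuolar ATPase, the proton pump that acidifies lysosomes, was called, and their median was -0.02. Of 20 saposin-like genes compared, whose products act on membranes, 2 were higher and 1 was lower, against 1.43% and 0.624% of all genes. *spp-3* (433.8 and 195.97 FPKM) and *spp-21* (10.5 and 1.77 FPKM) were higher, and *spp-12* (1.32 and 7.71 FPKM) was lower.

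Some large families moved little per gene but mostly to the same side. The transthyretin-related genes encode small secreted proteins of the nematode *ttr* family. Of 44 compared, 36 lay above 0, 5 were higher and 0 were lower, against 1.43% and 0.624% of all genes, with a median of 0.36. *ttr-32* was at 99.1 FPKM in double mutants and 25.1 FPKM in *spe-9* (1.96), and *ttr-18* at 154.9 and 51.3 FPKM (1.59). UDP-glucuronosyl transferases, which conjugate sugars to toxins, had a median of 0.49 with 37 of 43 genes above 0, but only *ugt-4* (36.3 FPKM in double mutants and 13.8 FPKM in *spe-9*) was higher and *ugt-21* (12.4 and 30.6 FPKM) was lower. Cytochrome P450 genes had a median of 0.38 with 26 of 35 above 0 and none called, and the largest were *cyp-42A1* at 1.06 and *cyp-34A4* at 1.06. P-glycoprotein transporters had a median of 0.48 over 10 genes, which was -0.03 once genes under a mean of 10 FPKM were left out. Patched-related membrane proteins had 17 of 18 genes above 0, a median of 0.40 and 2 genes called higher, *ptr-8* (36.0 and 13.8 FPKM) and *ptr-22* (44.7 and 21.7 FPKM). Glutathione S-transferases had a median of 0.04 over 43 genes. Their called member, *gst-1*, was at 677.3 FPKM in double mutants and 1386 FPKM in *spe-9* (-1.03). C-type lectins, many of which respond to pathogens, were split, again against 1.43% and 0.624% of all genes: 4 of 57 were higher, led by *clec-145* (9.14 and 2.78 FPKM), and 3 were lower, led by *clec-66* (9.83 and 32.3 FPKM). Over all genes 49.7% lay above 0.

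**Figure D3:**
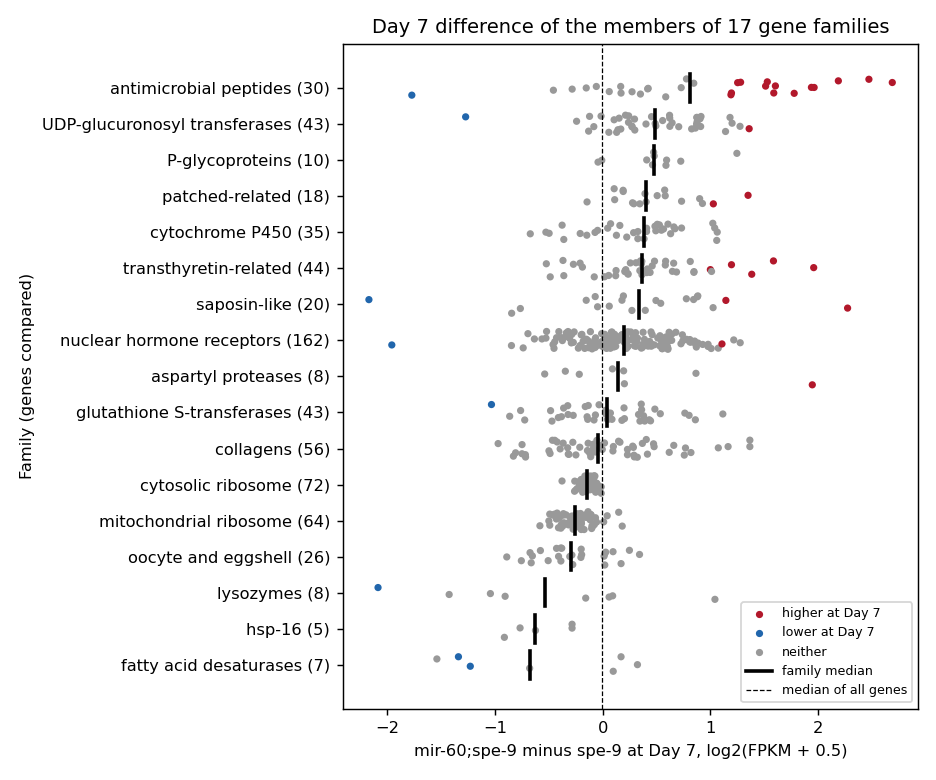
Each point is a gene, placed by *mir-60;spe-9* minus *spe-9* at Day 7 in log2(FPKM + 0.5), for 17 families with the number of genes compared in brackets. Red and blue points were called higher and lower, thick bars are family medians, and the dashed line is the median of all genes. The antimicrobial peptides hold most of the red points, and the medians run from 0.81 for them to -0.68 for the fatty acid desaturases.

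The lower genes included the most abundant transcripts that differed, and lipid enzymes were among them. *fat-2*, the desaturase that makes linoleic acid from oleic acid, was at 2328 FPKM in double mutants and 5889 FPKM in *spe-9* at Day 7, a difference of -1.34. Its 4 Day 0 libraries lay between 2147 and 2559 FPKM and its Day 10 library at 2151 FPKM, so the *spe-9* Day 7 library stood apart upward while the double mutants stayed at the Day 0 level. *fat-6*, a stearoyl-CoA desaturase that makes oleic acid, was at 964.6 and 2261 FPKM (-1.23), with all Day 0 values between 450.1 and 489.1 FPKM. Here both Day 7 libraries lay above Day 0, and the double mutant library of Day 10 reached 1933 FPKM. The other *fat* genes were not called, and they lay on both sides of 0: *fat-1* was at 957.6 FPKM in double mutants and 765.2 FPKM in *spe-9* (0.32), *fat-3* at 680.9 and 636.0 FPKM (0.10) and *fat-4* at 1679 and 1491 FPKM (0.17). *fat-5* was at 10.7 FPKM in double mutants and 17.4 FPKM in *spe-9* (-0.68). The related *fat-7* was at 0.70 and 2.98 FPKM (-1.54), just inside its limit of 1.58. Of the 7 desaturases 2 were lower, against 0.624% of all genes. The desaturase median was -0.68 and ran from -0.70 to -0.29 over the alternatives. Fatty acid elongases, 8 of 8 of which lay below 0, had a median of -0.21 with none called. The lipid-binding protein gene *lbp-9* was at 911.9 FPKM in double mutants and 1948 FPKM in *spe-9* (-1.09), whereas *lbp-7* was higher, at 25.1 and 9.48 FPKM (1.36). The fatty acid synthase gene *fasn-1* was also higher, at 52.4 and 25.2 FPKM (1.04). Of 40 genes of fatty acid activation and oxidation 2 were higher and 1 was lower, against 1.43% and 0.624% of all genes. The higher ones were *acs-3* (14.3 and 5.35 FPKM) and *acs-5* (23.4 and 10.7 FPKM), which encode acyl-CoA synthetases. The lower one was *acdh-2* (2.08 and 6.74 FPKM), an acyl-CoA dehydrogenase gene.

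Some genes called lower at Day 7 were far lower still at Day 0 in both strains. *dao-6* and *F19B2.5* were named here after their values were seen. The nuclear hormone receptor gene *nhr-17* was at 347.3 FPKM in double mutants and 1350 FPKM in *spe-9* at Day 7 (-1.96). At Day 0 it was at 10.9 and 11.6 FPKM in double mutants and at 10.8 and 11.5 FPKM in *spe-9*, and at Day 10 in double mutants it was at 1025 FPKM. *dao-6*, named for its overexpression in dauers or aging adults, was at 2107 FPKM in double mutants and 5397 FPKM in *spe-9* (-1.36), and *F19B2.5* was at 517.95 and 1690 FPKM (-1.70). Both were higher in double mutants at Day 0. *dao-6* was then at 17.1 and 24.8 FPKM in double mutants and at 9.70 and 12.8 FPKM in *spe-9*, and *F19B2.5* at 129.4 and 119.8 FPKM in double mutants and at 74.6 and 88.1 FPKM in *spe-9*. *clx-1* was at 3.05 and 23.9 FPKM (-2.78), on about 278 and 1960 reads, with no Day 0 library above 0.18 FPKM. In these genes the double mutant library lay between the Day 0 level and the *spe-9* level at Day 7.

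Genes named *dod*, for their place downstream of the transcription factor DAF-16, were also among the lower genes. *dod-24* was at 13.4 FPKM in double mutants and 69.6 FPKM in *spe-9* (-2.34), and *dod-3* was at 17.9 and 45.6 FPKM (-1.32). Of 7 *dod* genes compared 2 were lower and 0 were higher, against 0.624% and 1.43% of all genes, with a median of -0.23, and *dod-23* was at 353.5 and 224.3 FPKM (0.66). *F55G11.4*, which lies on chromosome IV as *dod-24* does, was at 0.41 FPKM in double mutants and 7.02 FPKM in *spe-9* (-3.04). *F08G5.6* was at 0.45 and 5.29 FPKM (-2.61), and *C14C6.5* at 4.87 and 26.8 FPKM (-2.35). *T24B8.5*, an ShK-like peptide gene used as a reporter of p38 signaling and named here after its value was seen, was at 64.2 FPKM in double mutants and 133.2 FPKM in *spe-9* (-1.05). All 5 of *dod-24*, *F55G11.4*, *F08G5.6*, *C14C6.5* and *T24B8.5* were already lower in double mutants at Day 0, with both double mutant libraries under both *spe-9* libraries and differences of -1.23, -1.21, -2.35, -3.41 and -2.32. Over all genes 24.7% had this order at Day 0. Of all 77 lower genes 22 (28.6%) had it, and 18 had both double mutant libraries above both *spe-9* libraries. The 3 *irg* genes compared, named for induction on infection, were not called and had a median of 0.29. Lysozymes, which digest bacterial walls, had a median of -0.53 over 8 genes, of which 3 lay above 0, and this median ran from -0.97 to -0.05 over the alternatives. *ilys-5* was lower, at 1.87 FPKM in double mutants and 9.56 FPKM in *spe-9* (-2.09), while its 4 Day 0 values lay between 897.5 and 1243 FPKM with the strains overlapping. *lys-3* was at 9.15 FPKM in double mutants and 4.19 FPKM in *spe-9* (1.04), *lys-1* at 34.1 and 64.2 FPKM (-0.91), *lys-4* at 1.34 and 4.44 FPKM (-1.42) and *lys-7*, the most abundant, at 1019 and 1136 FPKM (-0.16).

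**Figure D4:**
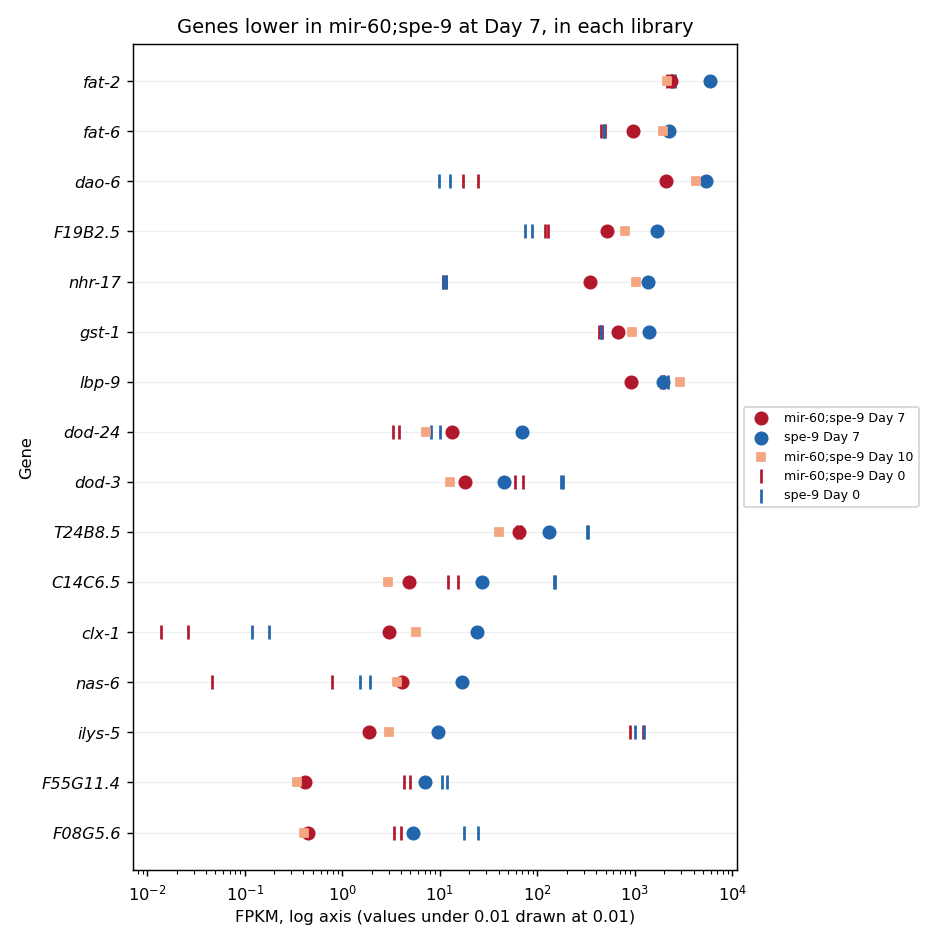
FPKM on a log axis for 16 genes called lower in *mir-60;spe-9* at Day 7, one row per gene. Large red points are double mutants and large blue points *spe-9* at Day 7, squares are double mutants at Day 10, and vertical ticks are the Day 0 libraries (red double mutants, blue *spe-9*). For *nhr-17*, *dao-6* and *fat-6* the red point lies between the ticks and the blue point, and for *dod-24*, *dod-3* and *C14C6.5* the ticks of both strains are already apart.

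Among the 15 lowest genes, the remaining ones were small or weakly covered. Of those described above, *F55G11.4*, *F08G5.6* and *ilys-5* also rested on few reads in the double mutant library, about 21, 23 and 24. In *spe-9* these 3 genes had about 319, 244 and 110 reads. *C28C12.1* (1.28 FPKM in double mutants and 8.19 FPKM in *spe-9*), *T28A8.8* (1.47 and 8.58 FPKM) and *spp-12* rested on 9 to 28 reads in the double mutant library. *F15H9.9* had 9.64 FPKM in *spe-9* on about 12 reads and was near 0 in the other 6 libraries. *R02E4.3* was at 12.6 FPKM in double mutants and 54.9 FPKM in *spe-9* (-2.08), and at 96.3 FPKM in double mutants at Day 10. *B0563.9* was at 23.3 and 99.97 FPKM (-2.08).

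Of the stress-response lists, only 1 gene was called. The small heat shock genes of the *hsp-16* family lay between 401.6 and 2748 FPKM at Day 7 in both strains, and all 5 were somewhat below 0, with a median of -0.62. *hsp-16.2* was at 421.3 FPKM in double mutants and 717.0 FPKM in *spe-9* (-0.77), and *hsp-16.41* at 401.6 and 756.2 FPKM (-0.91). Their reads overlap between near-identical copies, so single members are uncertain. The called gene was *hsp-12.3*, 1 of 13 other heat shock genes compared, at 5.73 FPKM in double mutants and 15.7 FPKM in *spe-9* (-1.38). Over all genes 0.624% were called lower. The superoxide dismutase gene *sod-3* was at 4.20 and 3.11 FPKM (0.38), the catalase gene *ctl-3* at 46.2 and 39.6 FPKM (0.22), the SKN-1 target *gst-4* at 50.2 and 44.3 FPKM (0.18) and *gcs-1*, the rate-limiting enzyme of glutathione synthesis, at 78.7 and 70.1 FPKM (0.17). None of 11 antioxidant enzymes was called, and their median was 0.01.

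Several gene groups, among them broadly expressed ones, lay mostly below 0 by small amounts. All 72 cytosolic ribosomal protein genes compared lay below 0 with a median of -0.14, a sign that turned to 0.04 after quantile normalization. Of 64 mitochondrial ribosomal protein genes 4 lay above 0 (median -0.26), of 32 proteasome genes 4 (median -0.11), and of 26 oocyte and eggshell genes 8 (median -0.30). None of these genes was called. Other broadly expressed groups lay nearer 0, also with none called. Above 0 were 13 of 31 respiratory chain genes (median -0.03) and 15 of 28 autophagy genes (median 0.01). For stress genes of mitochondria and endoplasmic reticulum it was 15 of 22 (median 0.08). The vitellogenins, which encode yolk proteins, had a median of -0.32 over 5 genes, and *vit-6* was at 1675 FPKM in double mutants and 891.2 FPKM in *spe-9* (0.91). Defining markers of tissues were called in no case. Their medians were 0.34 for the intestine (10 genes), 0.23 for body wall muscle (11), 0.23 for pharyngeal muscle (6), 0.25 for neurons (14), 0.21 for the epidermis (9), 0.16 for coelomocytes and sheath (8), 0.18 for sperm (9) and -0.11 for germ line and oocytes (17), which became 0.0012 after quantile normalization. The sperm median was -0.0095 with no filter on low FPKM. Of 24 major sperm protein genes compared, 7 lay above 0, with a median of -0.20 and none called. The summed level of the germ line and oocyte markers was 2488 FPKM in double mutants and 2961 FPKM in *spe-9*, that of the epidermis markers was 165.2 and 165.8 FPKM, and that of the intestine markers was 272.0 and 224.2 FPKM. The part of these shifts in the gene differences above was not tested.

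The Day 0 libraries, which share no library with the Day 7 comparison, differed between the strains in part of the same genes. Over the 12347 genes the Day 7 and Day 0 strain differences had a Pearson's r of 0.26 and a Spearman's rho of 0.40, as a description across genes that share their libraries. Of the 176 higher genes, 144 (81.8%, Wilson 95% interval 75.5 to 86.8%) were also above 0 at Day 0, against 51.3% of all genes. In 93 of them (52.8%) both double mutant libraries exceeded both *spe-9* libraries at Day 0, against 27.8% of all genes. Of the 77 lower genes, 41 (53.2%, 42.2 to 63.97%) were below 0 at Day 0, against 48.6% of all genes, and 22 (28.6%) had both double mutant libraries under both *spe-9* libraries, against 24.7%. These intervals treat genes as independent, which they are not. The change with time in the double mutants, Day 10 minus Day 0, had a Pearson's r of 0.04 and a Spearman's rho of 0.07 with the Day 7 strain difference.

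**Figure D5:**
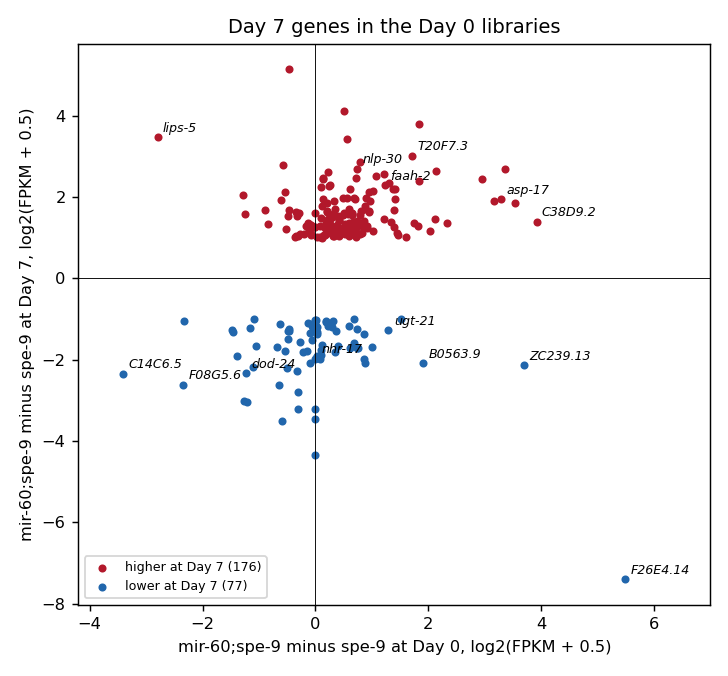
Each point is 1 of the 253 genes called at Day 7, with *mir-60;spe-9* minus *spe-9* at Day 0 (means of 2 libraries each) on the x axis and at Day 7 on the y axis, in log2(FPKM + 0.5). Red points (higher at Day 7) lie mostly right of 0, whereas blue points (lower at Day 7) lie on both sides.

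Genes that stood out between the strains at Day 0 kept their difference at Day 7 in some cases and not in others. *asp-17* had 46.9 and 41.7 FPKM in double mutants and 5.22 and 3.14 FPKM in *spe-9* at Day 0 (3.29), and its Day 7 difference was 1.95. *pgp-3*, a drug transporter gene, was at 2.55 FPKM in double mutants and 0.78 FPKM in *spe-9* at Day 7 (1.25, under its limit of 1.58), against 1.24 at Day 0. *pgp-9* was at 24.6 and 24.7 FPKM (-0.01), against 2.22 at Day 0, and *asp-10* at 42.8 and 62.4 FPKM (-0.54), against 2.13. *lys-7* had 53.1 and 45.9 FPKM in double mutants and 317.3 and 254.9 FPKM in *spe-9* at Day 0 (-2.51), whereas both Day 7 libraries were above 1000 FPKM. *ugt-21* had the opposite sign at the 2 ages, with 3.82 and 3.24 FPKM in double mutants and 1.17 and 1.11 FPKM in *spe-9* at Day 0 (1.30) and a difference of -1.27 at Day 7. The bZIP factor gene *zip-10* was at 24.5 FPKM in double mutants and 16.504 FPKM in *spe-9* at Day 7 (0.56), against 1.81 at Day 0. These genes were known from Day 0 results of the same strains, and their differences at the 2 ages were not tested against each other.

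Genes predicted to be direct targets of miR-60 were slightly above 0 on the whole. Of 1136 genes predicted by at least 1 of 6 programs 959 were compared, and 59.9% of these lay above 0, with a median of 0.09, 23 genes higher and 4 lower. Of the 548 compared that at least 2 programs predicted, 65.0% lay above 0, with a median of 0.12, 14 genes higher and 0 lower. Of the 112 that at least 4 programs predicted, 74.1% lay above 0, with a median of 0.21 and 2 genes higher: the glutamate transporter gene *glt-1* (17.04 FPKM in double mutants and 6.01 FPKM in *spe-9*, 1.43) and the inositol trisphosphate kinase gene *lfe-2* (81.4 and 37.4 FPKM, 1.11). Over all genes 49.7% lay above 0, the median was -0.0027, 1.43% were higher and 0.624% were lower. Predicted targets were not matched to other genes for length, level or tissue, so a part of these in the shift was not tested. Other predicted targets called higher included *faah-2*, *cpr-4*, *nlp-29* and *fipr-21*, each by 2 programs. A list of 7 genes, drawn up from part of those whose RNAi the study examined, held 6 candidates of its target screen and *zip-10*. The study also gives *zip-10* as a predicted target of miR-60. Among the candidates were *par-6* and *pkc-3*, which set cell polarity, and *cap-1*, an actin capping protein gene. All 7 lay above 0 and none was called, with a median of 0.07. *zip-10* was the largest at 0.56, and *cap-1* was at 190.7 FPKM in double mutants and 185.3 FPKM in *spe-9* (0.04).

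The called genes were spread over all chromosomes. Chromosome V held 55 higher and 21 lower genes of 2292 compared (3.32%), X 39 and 12 of 1796 (2.84%), IV 28 and 18 of 1823 (2.52%), II 27 and 11 of 2228 (1.71%), I 15 and 9 of 2137 (1.12%) and III 12 and 6 of 2071 (0.869%). Within 2 Mb of *mir-60* on chromosome II, 7 genes were higher and 2 were lower of 672 (1.34%), against 2.05% of all genes. An effect of a mutation linked to *mir-60*, on these genes or on others, was not tested.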

How the data were processed

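The authors aligned single-end reads of 100 bases (polyadenylated RNA, stranded TruSeq libraries) to the WS220 assembly (Bowtie 2.1.0 within TopHat 2.1.0). They then ran Cufflinks 2.2.1 on the merged runs of each library, and the deposited FPKM are per RefSeq transcript. The deposited lengths are mostly coding lengths. Depth is not stated there. In single-transcript genes of 300 to 3000 bases, over 95% of values worth up to 8 reads fell within 0.05 of a whole number of reads under a fragment-length model, and reads behind other values were estimated from it. Analyses were run in Python 3.11.15 with numpy 2.4.6, pandas 2.3.3 and scipy 1.17.1. FPKM were summed per gene and 0.5 was added before log2. The filters and the noise limit are given above. Libraries were grouped by their labels, and no test was made with 1 library per strain.

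Named genes were the 15 largest differences each way among called genes with at least 5 FPKM in the higher library, up to 4 called genes per family list, and members of the short lists. The members, lists and rules were chosen with earlier results of these data known. Genes carry the symbols of the file. Predicted targets were matched by sequence name (1123 of 1136 found). Alternatives covered the pseudocount, filters, scaling, the transcript used, the noise limit, the fold, and each Day 0 library left out in turn.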

Additional observations from a re-analysis of the deposited data

Results flagged for a closer look

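In 11 of 87 named genes called at Day 7 the strains differed at Day 0 in the direction opposite to Day 7, with every *mir-60;spe-9* library on one side of every *spe-9* library at Day 0. Over all genes, both *mir-60;spe-9* libraries lay above both *spe-9* libraries at Day 0 in 27.8% and below them in 24.7%. The difference between the ages was not tested. *F26E4.14* had 5.49 at Day 0 and -7.40 at Day 7 on the log2(FPKM + 0.5) scale, *ZC239.13* 3.69 and -2.14, and *lips-5* -2.80 and 3.46. The Day 7 differences of these 3 rested on transcript entries under 200 bases. *B0563.9*, a single entry of 216 bases, had 1.91 at Day 0 and -2.08 at Day 7. At Day 0 it was at only 1.43 and 1.34 FPKM in *mir-60;spe-9*, and both *spe-9* libraries were listed at 0. That Day 0 difference thus lay near the floor. The remaining genes, again with Day 0 first, were *ugt-21* (1.30 and -1.27), *dao-6* (0.86 and -1.36), *F19B2.5* (0.62 and -1.70), *clec-66* (0.41 and -1.67), *clec-186* (-0.52 and 1.21), *acs-3* (-0.12 and 1.34) and *acs-5* (-0.085 and 1.09).

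The 352 genes listed at 0 in the *mir-60;spe-9* Day 7 library while expressed in the *spe-9* Day 7 library were left out of every count above. Of these, 80 were above 100 FPKM in *spe-9*.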

How the results depend on the processing

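No paired analysis was possible because each strain had 1 library at Day 7 and no test was made. Of the genes compared, 1.43% were higher and 0.624% lower. These shares were 2.96 and 1.25% with the noise limit at the 95th percentile, which left every gene over 2-fold, 2.47 and 0.988% with each gene's own replicate difference as the limit, 2.61 and 1.142% over 1.5-fold, and 0.251 and 0.162% over 4-fold. Quantile normalization gave 2.16% higher, and keeping genes with an exact 0 gave 3.38% lower, since the stretches of zeros then counted. The share of lower genes with the same sign at Day 0, 53.2%, was 41.7% with no limit on length, 64.1% after quantile normalization and 80% over 4-fold. The share for higher genes, 81.8%, ran from 71.6 to 81.3% with a Day 0 library left out, and the lower share from 46.8 to 61.0%. The lowest value for higher genes came without replicate 2 of *mir-60;spe-9*. Under the other alternatives the shares of higher and lower genes stayed within 1.5 times of the value, and the Day 0 shares within their 95% intervals.

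Of the 14 antimicrobial peptide genes, 9 were called with the own replicate limit and 3 over 4-fold, and with a longest transcript of at least 500 bases 3 genes of the list were compared and 0 called. With a mean of at least 10 FPKM the medians of aspartyl proteases (-0.06), neprilysins (-0.19), astacins (-0.37) and P-glycoproteins (-0.03) fell below 0. The alternatives with short transcripts left out, with at least 50 estimated reads and with at least 5 FPKM in the higher library were chosen after seeing the data. Depth limits the low genes: 10 higher and 13 lower genes had under 20 estimated reads in the higher library.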

Other observations

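Genes were also grouped by the prefix of their symbol, with at least 8 genes compared, and the groups below were chosen after their values were seen, from 126 groups. All 16 *nspc* genes, which encode small nematode-specific peptides, lay above 0 at Day 7, with a median of 0.83 and 2 called higher, and the median gene was at 129.4 FPKM in *mir-60;spe-9* and 69.4 FPKM in *spe-9*. All 8 *sma* genes, several of which act in the TGF-beta pathway of body size, lay above 0 (median 0.54), as did 7 of 8 *far* genes for fatty acid and retinol binding proteins (median 0.53) and 15 of 16 *acs* genes for acyl-CoA synthetases (median 0.41, 2 called higher). Over all genes 49.7% lay above 0 and 1.43% were called higher.

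On the other side, 1 of 12 *tbx* genes for T-box transcription factors lay above 0 (median -0.59), as did 17 of 93 *fbxb* genes for F-box B proteins (median -0.41), whose median gene was at 3.22 FPKM in *mir-60;spe-9* and 4.35 FPKM in *spe-9*. All 8 *sqv* genes of glycosaminoglycan synthesis (median -0.38) and all 8 *exos* genes of the RNA exosome (median -0.28) lay below 0. None of these lower groups held a called gene. Tyrosinase genes, also picked after their values were seen, were split: *tyr-4* was higher, at 31.2 FPKM in *mir-60;spe-9* and 12.99 FPKM in *spe-9* (1.23), and *tyr-2* was lower, at 2.92 and 10.5 FPKM (-1.69).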
